A study of Saccharomyces cerevisiae with 6 samples.

Results

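The transcripts described are 4 pairs of genes that encode aerobic and hypoxic isoforms of the same protein in the budding yeast Saccharomyces cerevisiae, together with ROX1 and HEM13. They were chosen by gene name, and all 10 were found among the 6400 named entries of a table of transcript abundances. The pairs are COX5A and COX5B (subunit V of cytochrome c oxidase), CYC1 and CYC7 (cytochrome c), PET9 and AAC3 (the mitochondrial ADP/ATP carrier), and HYP2 and ANB1 (translation factor eIF5A). Poly(A) RNA of W303, a laboratory strain, was sequenced in 6 libraries, replicates A and B of a T1, a T2 and a T3 group. The titles mark every library as an arrest sample, so all 3 groups share the arrest and no library of dividing cells enters any comparison. Per the series' design text, the cultures had 3 different mean cell sizes. The labels give no size or time for a group, no way of arrest and no genotype beyond W303, and the groups are therefore compared by name. T3 against T1 was the main comparison.

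Yeast makes some respiratory proteins in 2 versions that differ in when they are used. When oxygen is present, heme is made, and heme turns on the activators Hap1 and Hap2/3/4/5 and, through Hap1, the gene of the repressor Rox1, a DNA-binding protein of the HMG class. Rox1 together with the Tup1-Cyc8 corepressor holds down hypoxic genes such as ANB1, COX5B, AAC3 and HEM13. When oxygen and heme run low, Rox1 is lost and those genes are expressed.

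The abundances are TPM, a share of each library's transcripts that is corrected for gene length and scaled so that all entries add up to 1000000. TPM therefore gives relative levels and not RNA per cell. Fragment counts recovered from the TPM came to between 17872644 and 23534509 per library on annotated genes. Among marker genes of cell type, none was listed at 0. Those of alpha cells (STE3, SAG1 and both alpha-factor genes) summed to 3849 and 3899 TPM in T1, 2861 and 3032 TPM in T2, and 2040 and 1975 TPM in T3, and all 4 fell in T3 against T1. Sums ran from 24.2 to 32.1 TPM per library for 5 a-cell genes, of which BAR1 rose, and from 12.5 to 22.9 TPM for 3 genes of meiosis, of which IME1 and SPS4 rose. The part of these shifts in the results was not tested. The labels do not say that replicates A and B came from separate cultures. The p-values therefore set differences between groups against a spread between libraries that may be technical. Changes were tested with limma on log2(TPM + 1) over 6046 genes, those whose mean was 1 TPM or more, with Benjamini-Hochberg adjustment over all of them and a threshold of 0.05. In T3 against T1, 48.0% of all genes tested passed, 31.0% higher and 16.9% lower. In the alternatives named beside single results, libraries were left out, quantile-normalized or rescaled by size factors (medians of gene-wise ratios), or the spread was fitted without its trend over abundance.

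The pairs differ in how alike their coding sequences are, which bears on whether reads can be told apart. In the R64 reference, ANB1 and HYP2 are identical at 90.9% of 474 aligned bases, AAC3 and PET9 at 79.1%, CYC7 and CYC1 at 77.0%, and COX5B and COX5A at 66.4%. The longest stretch without a difference is 43 bases in ANB1 and HYP2, 35 in CYC7 and CYC1, 20 in AAC3 and PET9, and 12 in COX5B and COX5A, and in no pair is any 50-base window shared, against reads of 150 bases. The stretches of 60 bases in which ANB1 and HYP2 are most alike (coding bases 44 to 103 of both) and least alike (coding bases 274 to 333 of both), and the least alike stretch of CYC7 (coding bases 52 to 111) and CYC1 (coding bases 40 to 99), are shown because the low member of each pair is read against a far more abundant partner. Capitals mark bases that differ between the 2 genes, and the strand shown is the coding strand.
ANB1, most alike: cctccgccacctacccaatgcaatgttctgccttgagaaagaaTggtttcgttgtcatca
HYP2, most alike: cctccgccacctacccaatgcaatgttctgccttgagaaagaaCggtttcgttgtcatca
ANB1, least alike: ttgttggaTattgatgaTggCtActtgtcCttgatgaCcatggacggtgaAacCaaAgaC
HYP2, least alike: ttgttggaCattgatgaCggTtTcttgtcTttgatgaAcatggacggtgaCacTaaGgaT
CYC7, least alike: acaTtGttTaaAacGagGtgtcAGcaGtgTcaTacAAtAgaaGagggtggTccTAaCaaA
CYC1, least alike: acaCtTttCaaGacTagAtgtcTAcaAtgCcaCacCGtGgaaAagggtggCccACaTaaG
The ANB1 and HYP2 windows match at 59 and at 50 of the 60 bases, and the CYC7 and CYC1 window at 40 of 60. How reads that match several genes were treated is not given in the sources used here, so ANB1 in particular is uncertain.

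Promoters were searched for the sites of the factors that act on these genes. Of 6000 nuclear protein-coding genes with 500 bases before the start codon, 48.9% hold ATTGTT, the core of the Rox1 site, on either strand, and so do 6 of the 10 genes (COX5A, COX5B, AAC3, ANB1, ROX1 and HEM13). The longer form ATTGTTCTC, which contains the core and was added to the search later, is in 1.13% of all promoters, and in those of ANB1, where it occurs at 2 positions, and HEM13. Windows of 30 bases around a Rox1 core are shown for the hypoxic genes that have one and for ROX1, read 5′ to 3′ on the coding strand of the gene, with the matched letters in capitals.
ANB1, chrX:525644-525673, minus strand: tttttcgccctATTGTTCTCgagcctaaaa
ANB1, chrX:525577-525606, minus strand: tttcctattccATTGTTCTCtttggtaaac
HEM13, chrIV:546449-546478, plus strand: ttgctttgcccATTGTTCTCgtttcgaaag
COX5B, chrIX:154986-155015, plus strand: ttttgattttgtATTGTTcgataaggcaac
AAC3, chrII:415777-415806, plus strand: tttttctttttcATTGTTtggttgccttca
ROX1, chrXVI:679288-679317, plus strand: agaaaagggcctATTGTTgctgcctctttt
Coordinates are those of R64. The matches start 281 and 214 bases before the ANB1 start codon, 182 before that of HEM13, 224 before that of COX5B, 194 before that of AAC3 and 393 before that of ROX1. Further cores, not shown, start 312 and 193 bases before the ANB1 start codon and 471 before that of HEM13. On the other strand, cores not shown start 375 and 81 bases before the COX5B start codon and 464 before that of ROX1. The core of the aerobic gene COX5A, 95 bases before its start codon on the other strand, is also not shown. CYC7 has no ATTGTT in its window. CCAAT, the letters bound by Hap2/3/4/5, is in 62.4% of all promoters and in 8 of the 10. TCGTATA, the letters bound by Upc2 and Ecm22, is in 7% and, of the 10, in CYC7 alone. A spaced form of the Hap1 site is in 0.350% of all promoters and in 0 of the 10. Only these set letters were searched, so a site that differs from them was not found, and a gene without a match may still hold a site. A match describes the sequence of the R64 reference only. The sequence of W303 was not examined, and binding was not measured.

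**Figure D1:**
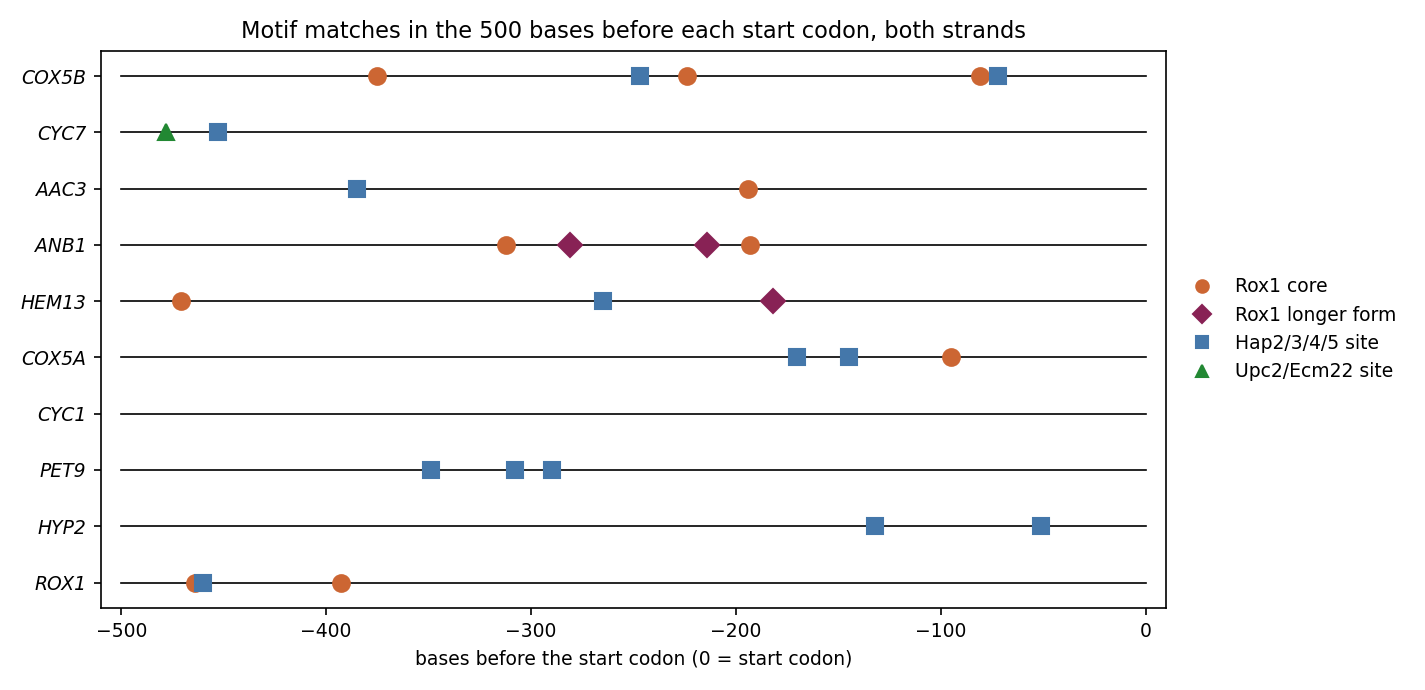
Matches to the Rox1 core, the longer Rox1 form, the Hap2/3/4/5 site and the Upc2/Ecm22 site in the 500 bases before each start codon, on both strands; the horizontal axis gives bases before the start codon, and each row is a gene. ANB1 carries 4 Rox1 cores, 2 of them in the longer form, between 312 and 193 bases before its start codon, and CYC1 has no match to any of these letters in the window.

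Among the hypoxic isoforms, COX5B, CYC7 and ANB1 rose in T3 against T1 and AAC3 fell, and HEM13 rose as well. COX5A, CYC1 and PET9 rose by 1.17- to 1.20-fold, and HYP2 and ROX1 did not pass the test. In all, 7 of the 10 genes were higher and 1 lower, beside 31.0% and 16.9% of all genes tested. The count higher was 4 without T3 replicate A, with size factors and without the trend, and the count lower was 0 without T1 replicate B, T3 replicate A or T3 replicate B. Over all genes, 1586 were higher and 1567 lower with size factors, and 1419 higher and 1722 lower after quantile normalization, against 1877 and 1024 as deposited. The median log2 change was 0.26 over the 10 genes and 0.09 over all genes tested. Both T3 libraries lay above both T1 libraries for 7 of the 10 genes, beside 45.7% of all genes, and below them for AAC3, beside 29.3%.

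CYC7, the gene of cytochrome c isoform 2 (YEL039C, chromosome V, 79636 to 79977, minus strand, a single exon), had the largest change of the 10. Its abundance was 81.9 and 72.0 TPM in T1 replicates A and B, 128.5 and 122.9 TPM in T2, and 220.7 and 255.4 TPM in T3. No 2 groups overlapped, and the libraries of each group lay above those of the group numbered before it. CYC7 rose 3.07-fold in T3 against T1 (log2 change 1.62, SE 0.10, limma adjusted p = 4.81e-08), with 238.1 ± 24.6 TPM in T3 and 76.9 ± 6.97 TPM in T1 (SD, n = 2 each). It ranked 97th by size of change among the 6046 genes. It rose 1.63-fold in T2 against T1 (limma adjusted p = 0.000458) and 1.88-fold in T3 against T2 (limma adjusted p = 8.36e-05), and passed the test in every alternative run for these 3 comparisons.

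COX5B, the gene of the hypoxic cytochrome c oxidase subunit (YIL111W, chromosome IX, 155222 to 155765, plus strand, with an intron between its 2 exons), stood at 54.2 and 52.0 TPM in T1, 78.1 and 79.4 TPM in T2, and 96.1 and 110.2 TPM in T3. These groups were also apart, in the order of their numbers. COX5B rose 1.92-fold in T3 against T1 (log2 change 0.94, SE 0.10, limma adjusted p = 4.4e-06), with 103.2 ± 10.003 TPM in T3 and 53.1 ± 1.56 TPM in T1 (SD, n = 2 each). It rose 1.48-fold in T2 against T1 (limma adjusted p = 0.00168) and 1.30-fold in T3 against T2 (limma adjusted p = 0.0148). The T3 against T2 call was lost without T2 replicate A (limma adjusted p = 0.0737), without T3 replicate B (limma adjusted p = 0.156), after quantile normalization (0.0632) and with size factors (0.0514).

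HEM13 encodes coproporphyrinogen III oxidase, a heme synthesis enzyme that consumes oxygen (YDR044W, chromosome IV, 546642 to 547628, plus strand, a single exon). Its levels were 58.7 and 58.3 TPM in T1, 67.1 and 79.3 TPM in T2, and 91.4 and 87.8 TPM in T3, again stepwise and without overlap. Of the 10 genes, COX5B, CYC7 and HEM13 showed such a stepwise order upward, as did 20.2% of all genes tested, and none showed it downward, against 9.36% of all. HEM13 rose 1.52-fold in T3 against T1 (log2 change 0.61, SE 0.10, limma adjusted p = 0.000287). In T2 against T1 it rose 1.24-fold (limma adjusted p = 0.0494), a call lost in 10 of the 15 alternatives, among them without T1 replicate A (limma adjusted p = 0.0879), T1 replicate B (0.112), T2 replicate B (0.321), T3 replicate A (0.0629) and T3 replicate B (0.0626). In T3 against T2 the fold was 1.22 and the limma adjusted p = 0.057. It passed with a filter of 10 TPM (limma adjusted p = 0.0405) and with the 2 groups compared alone (limma adjusted p = 0.0344). It also passed without T1 replicate A, T1 replicate B or T2 replicate B.

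ANB1, the hypoxic eIF5A gene (YJR047C, chromosome X, 524908 to 525381, minus strand, a single exon), was the least abundant of the 10. Its values were 1.68 and 2.16 TPM in T1, 3.39 and 4.39 TPM in T2, and 4.28 and 4.52 TPM in T3. They rest on 24 and 29 fragments in T1, 42 and 54 in T2, and 46 and 67 in T3. Both T1 libraries lay below all others, and the T2 and T3 libraries overlapped. Exact 95% Poisson intervals for single libraries cover counting error only. In T1 they were 15.4 to 35.7 for 24 fragments and 19.42 to 41.65 for 29. In T3 they were 33.7 to 61.4 for 46 fragments and 51.9 to 85.1 for 67. The interval of T3 replicate A thus overlaps those of both T1 libraries, and that of T3 replicate B overlaps neither. ANB1 rose 1.86-fold in T3 against T1 on the log2(TPM + 1) scale, which understates changes at this level (log2 change 0.89, SE 0.21, limma adjusted p = 0.00319). The log2 change was 1.17 with a pseudocount of 0.1 TPM and 0.44 with one of 5 TPM, and it passed the test in both. In T2 against T1 it rose 1.67-fold (limma adjusted p = 0.0256), a call lost without T1 replicate A (limma adjusted p = 0.0869) and without T2 replicate B (limma adjusted p = 0.17).

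AAC3, the hypoxic ADP/ATP carrier gene (YBR085W, chromosome II, 415983 to 416906, plus strand, a single exon), went the other way from the other hypoxic isoforms. It stood at 6.10 and 8.17 TPM in T1, 5.21 and 7.38 TPM in T2, and 4.68 and 4.64 TPM in T3, from 170 and 214, 126 and 177, and 98 and 134 fragments. The T1 and T2 libraries overlapped, and both T3 libraries lay below all the others. AAC3 had a log2 change of -0.51 in T3 against T1 (SE 0.19, limma adjusted p = 0.0366), with 4.66 ± 0.0247 TPM in T3 and 7.13 ± 1.47 TPM in T1 (SD, n = 2 each). The call was lost without T1 replicate B (log2 change -0.33, limma adjusted p = 0.238), without T3 replicate A (limma adjusted p = 0.0884) and without T3 replicate B (limma adjusted p = 0.09).

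**Figure D2:**
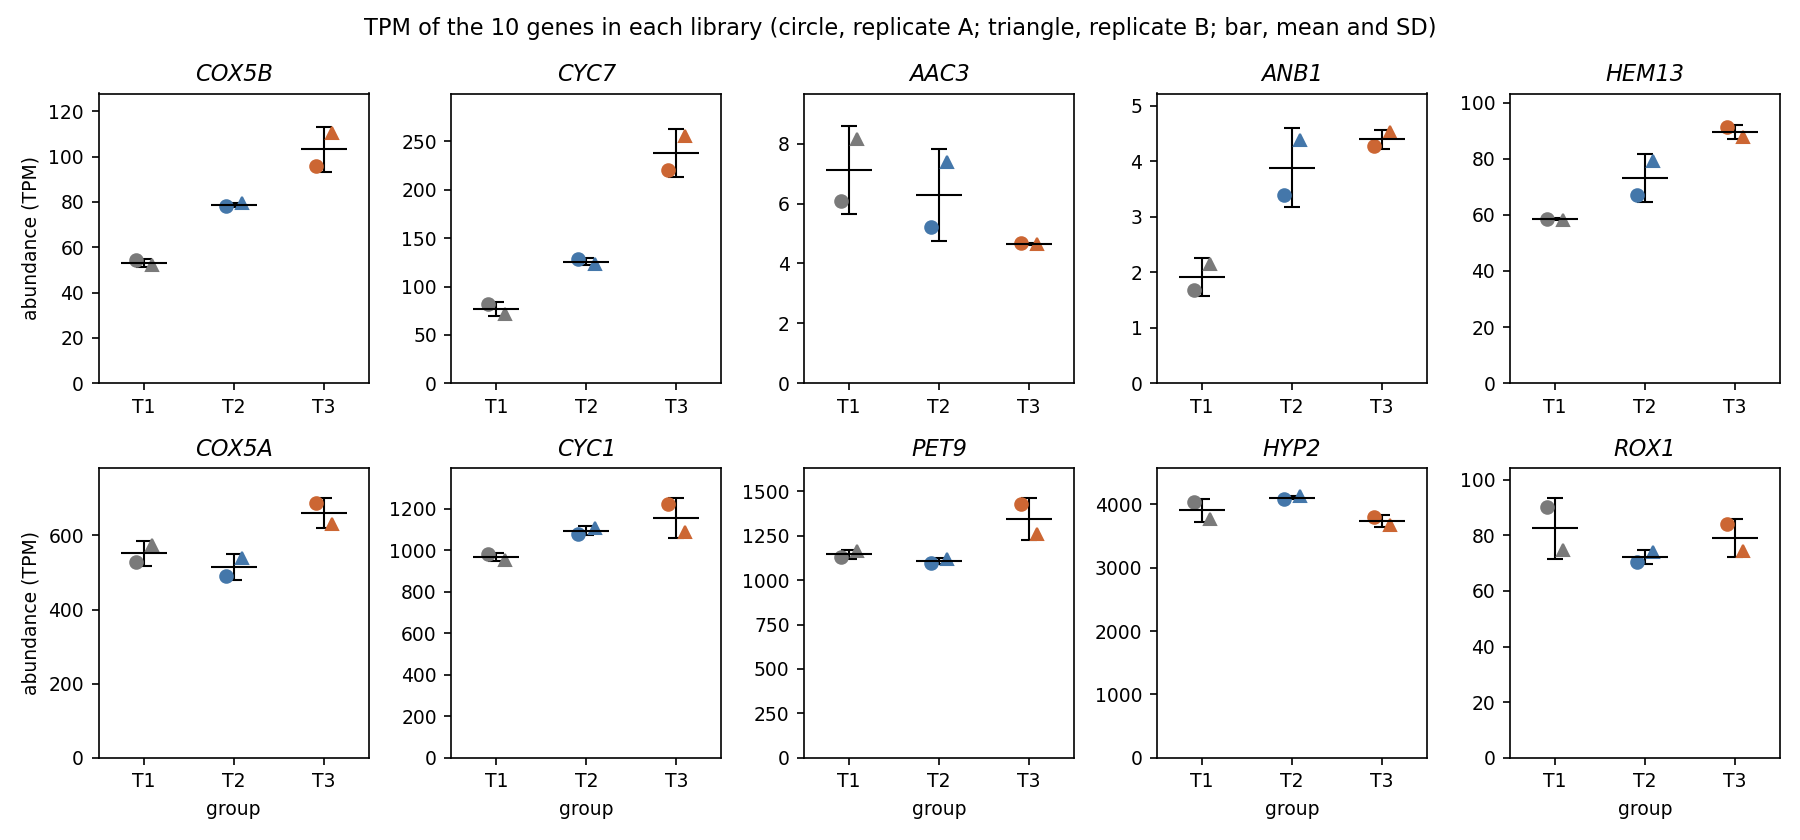
Abundance in TPM (vertical axes, each from 0) of the 10 genes in the T1, T2 and T3 libraries; circles are replicate A, triangles replicate B, and bars the mean and SD of 2 libraries. CYC7 lies at 220.7 to 255.4 TPM in T3 and 72.0 to 81.9 TPM in T1, AAC3 lies lowest in T3, and the T3 and T1 libraries of HYP2 and of ROX1 overlap.

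The aerobic isoforms were the abundant members of every pair, and their differences were small. COX5A (YNL052W, chromosome XIV, 531725 to 532186, plus strand) had 528.2 and 574.8 TPM in T1, 490.9 and 539.8 TPM in T2, and 688.1 and 631.7 TPM in T3. Both T3 libraries lay above all others, and T1 and T2 overlapped. It rose 1.20-fold in T3 against T1 (log2 change 0.26, SE 0.09, limma adjusted p = 0.0267) and 1.28-fold in T3 against T2 (limma adjusted p = 0.011). The T3 against T1 call was lost without T1 replicate A (limma adjusted p = 0.158), without T3 replicate A (0.182), with size factors (0.0757), without the trend (0.0737) and after quantile normalization, where the log2 change was 0.02 (0.787). That of T3 against T2 was lost without T2 replicate A (limma adjusted p = 0.116), without T3 replicate A (0.1005), after quantile normalization (0.0509) and without the trend (0.0525).

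CYC1, the gene of cytochrome c isoform 1 and neighbour of ANB1 (YJR048W, chromosome X, 526335 to 526664, plus strand), had 982.0 and 953.8 TPM in T1, 1080 and 1108 TPM in T2, and 1224 and 1085 TPM in T3. It is read away from ANB1, with 953 bases between the 2 coding sequences. The T1 libraries were the lowest, and T2 and T3 overlapped. CYC1 rose 1.19-fold in T3 against T1 (log2 change 0.25, SE 0.08, limma adjusted p = 0.019). The call was lost without T1 replicate B (limma adjusted p = 0.0658), without T3 replicate A (0.204), with size factors (0.133) and without the trend (0.0694).

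PET9, the major ADP/ATP carrier gene (YBL030C, chromosome II, 163041 to 163997, minus strand), had 1128 and 1164 TPM in T1, 1095 and 1120 TPM in T2, and 1429 and 1260 TPM in T3. Both T3 libraries were above the rest. It rose 1.17-fold in T3 against T1 (log2 change 0.23, SE 0.08, limma adjusted p = 0.0305) and 1.21-fold in T3 against T2 (limma adjusted p = 0.024). The T3 against T1 call was lost without T1 replicate A (limma adjusted p = 0.101), without T3 replicate A (0.289), with size factors (0.18) and without the trend (0.0952). That of T3 against T2 was lost without T2 replicate A (limma adjusted p = 0.142), T2 replicate B (0.0802) or T3 replicate A (0.248), with size factors (0.0893) and without the trend (0.0939).

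HYP2, the aerobic eIF5A gene (YEL034W, chromosome V, 85676 to 86149, plus strand), was the most abundant of the 10. It stood at 4034 and 3774 TPM in T1, 4087 and 4123 TPM in T2, and 3800 and 3667 TPM in T3, and the T3 and T1 libraries overlapped. Its log2 change in T3 against T1 was -0.06, with a 95% interval of -0.20 to 0.08 (limma adjusted p = 0.441), and it passed the test in none of the 3 comparisons.

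ROX1, the repressor gene (YPR065W, chromosome XVI, 679693 to 680799, plus strand), had 90.2 and 74.7 TPM in T1, 70.3 and 74.0 TPM in T2, and 83.9 and 74.3 TPM in T3. The T3 and T1 libraries overlapped, and replicate A of T1 was the highest of the 6. Its log2 change in T3 against T1 was -0.06, with a 95% interval of -0.29 to 0.18 (limma adjusted p = 0.703), which spans changes in both directions, and the log2 change was 0.08 without T1 replicate A and 0.03 without T3 replicate B. ROX1 did not pass the test in T2 against T1 (limma adjusted p = 0.281) or in T3 against T2 (limma adjusted p = 0.446).

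In T2 against T1, 4 of the 10 genes rose (COX5B, CYC7, ANB1 and HEM13) and 0 fell, beside 11.9% higher and 6.10% lower among all genes tested (18.0% in either direction). The count higher was 2 without T1 replicate A or T2 replicate B. In T3 against T2, 4 rose (COX5A, COX5B, CYC7 and PET9) and 0 fell, beside 15.8% higher and 6.09% lower (21.9% in either direction). The count higher was 1 without T2 replicate A, and 2 without T3 replicate A, with size factors, after quantile normalization and without the trend. Both T2 libraries lay above both T1 libraries for 6 of the 10 genes and below them for PET9 and ROX1, beside 32.3% and 24.3% of all genes. Both T3 libraries lay above both T2 libraries for 6 and below them for AAC3 and HYP2, beside 40.9% and 21.4%. Of the falls, 0 genes had an unadjusted p under 0.05 in T2 against T1 and 0 in T3 against T2. COX5A and PET9 passed in the second step alone and ANB1 and HEM13 in the first alone, but the difference between the steps passed for 0 of the 10 genes, beside 1.08% of all genes (0.761% higher and 0.314% lower). The difference between the steps had an unadjusted p under 0.05 for COX5A (0.0102, limma adjusted p = 0.22) and PET9 (0.0336, limma adjusted p = 0.343). These comparisons share libraries and are not independent of each other.

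**Figure D3:**
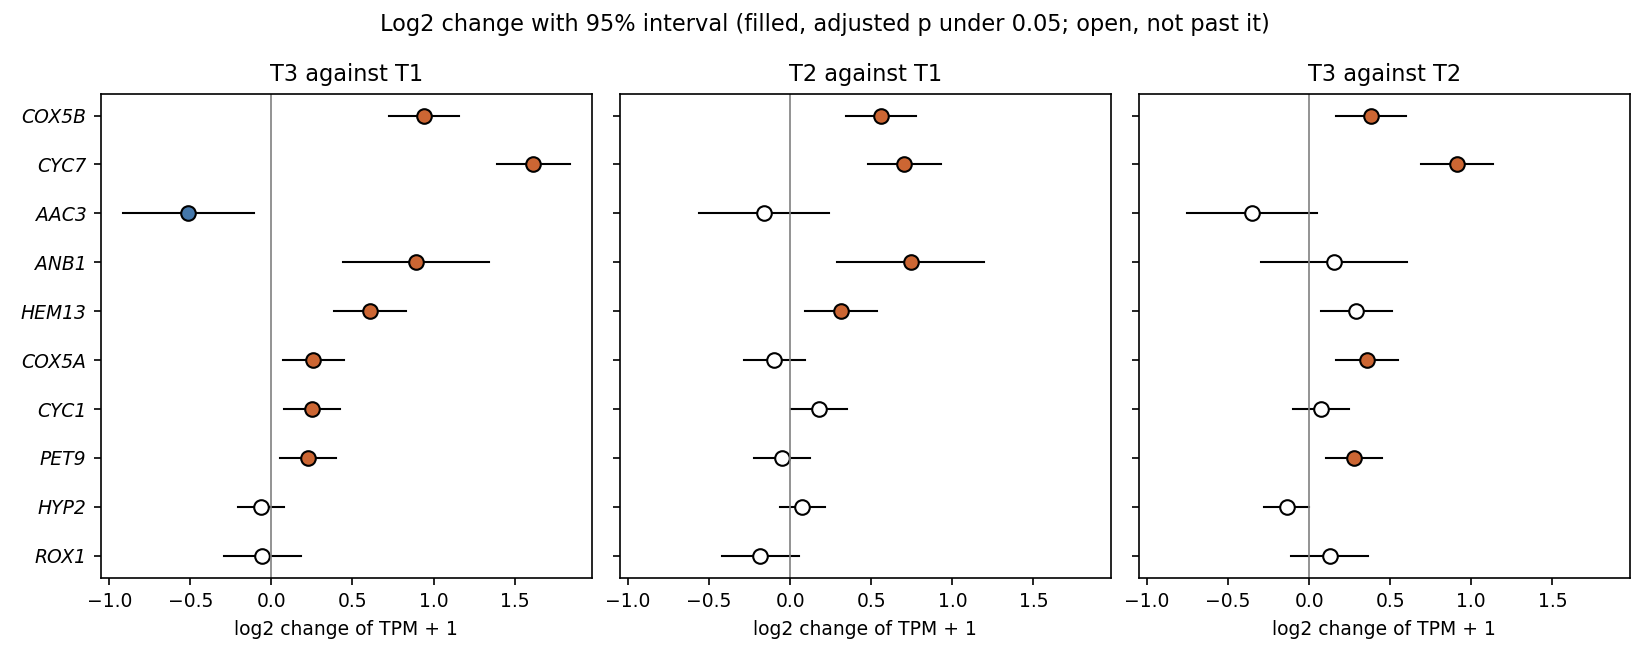
Log2 change of TPM + 1 (horizontal axes) with its 95% interval for the 10 genes in T3 against T1, T2 against T1 and T3 against T2; filled points passed the adjusted p threshold of 0.05 and open points did not. In T3 against T1, CYC7 lies farthest to the right at 1.62 and AAC3 is the only filled point left of 0, at -0.51.

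Set within their pairs, CYC7 took a larger share of the pair's transcripts in each group than in the one numbered before it. ANB1 did so too, but its T2 and T3 shares lay close together and rest on few fragments. AAC3 took its smallest share in T3. AAC1, another ADP/ATP carrier gene, is in no pair and not in these shares. Since TPM is corrected for length, the share is the hypoxic TPM as a percentage of the pair's summed TPM. The log2 ratio of the 2 members, with 1 TPM added to each, was tested for a slope over the groups in the order of their numbers, with an exact two-sided permutation test over the 90 assignments of 6 libraries to 3 groups of 2. The smallest p it can give is 0.0222, and 4 pairs were tested. The p-values are unadjusted.

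CYC7 made up 7.69 and 7.02% of cytochrome c transcripts in T1, 10.6 and 9.98% in T2, and 15.3 and 19.1% in T3. Groups did not overlap. The log2 ratio of CYC7 to CYC1 had a slope of 0.68 per group (exact permutation p = 0.0222), and it was 1.36 higher in T3 than in T1. Without either T2 library the slope was 0.68, and the exact permutation test then has too few assignments to go under 0.05, whatever the values. CYC7 and CYC1 together averaged 1393 ± 73.8 TPM in T3 and 1045 ± 26.9 TPM in T1 (SD, n = 2 each).

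COX5B made up 9.31 and 8.29% of subunit V transcripts in T1, 13.7 and 12.8% in T2, and 12.3 and 14.9% in T3. Both T1 libraries were lowest, and the T2 libraries lay within the range of the T3 libraries. The slope of the log2 ratio was 0.34 per group and missed the threshold (exact permutation p = 0.0667). The ratio was 0.66 higher in T2 than in T1 and 0.03 higher in T3 than in T2. Without T3 replicate A the slope was 0.46, and with any other library left out it lay between 0.26 and 0.34. With assignments made within replicates A and B, the exact permutation p was 0.111.

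AAC3 made up 0.537 and 0.697% of the summed TPM of AAC3 and PET9 in T1, 0.474 and 0.655% in T2, and 0.326 and 0.367% in T3. Libraries of T1 and T2 overlapped, and the T3 libraries were lowest. The slope of the log2 ratio was -0.37 per group (exact permutation p = 0.0444), and the exact permutation p lay between 0.0667 and 0.167 when any 1 library was left out. The ratio of AAC3 to PET9 was 0.74 lower in T3 than in T1.

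ANB1 made up 0.0416 and 0.0572% of the summed TPM of ANB1 and HYP2 in T1, 0.0828 and 0.106% in T2, and 0.112 and 0.123% in T3. Groups did not overlap, but T2 replicate B and T3 replicate A lay close, at 54 and 46 ANB1 fragments. Their exact 95% Poisson intervals of 40.6 to 70.5 and 33.7 to 61.4 fragments overlap. ANB1 itself did not pass in T3 against T2 (limma adjusted p = 0.65). The slope of the log2 ratio was 0.48 per group (exact permutation p = 0.0222), with 0.62 at a pseudocount of 0.1 TPM and 0.25 at one of 5 TPM. The slope was 0.53 without T3 replicate A and 0.48 without T3 replicate B, and it did not pass in either. Without either T2 library the slope was 0.48, and the exact permutation test then has too few assignments to go under 0.05, whatever the values. In recovered fragments, ANB1 came to between 0.0416 and 0.123% of HYP2. The part that misassigned HYP2 reads have in these values was not tested.

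**Figure D4:**
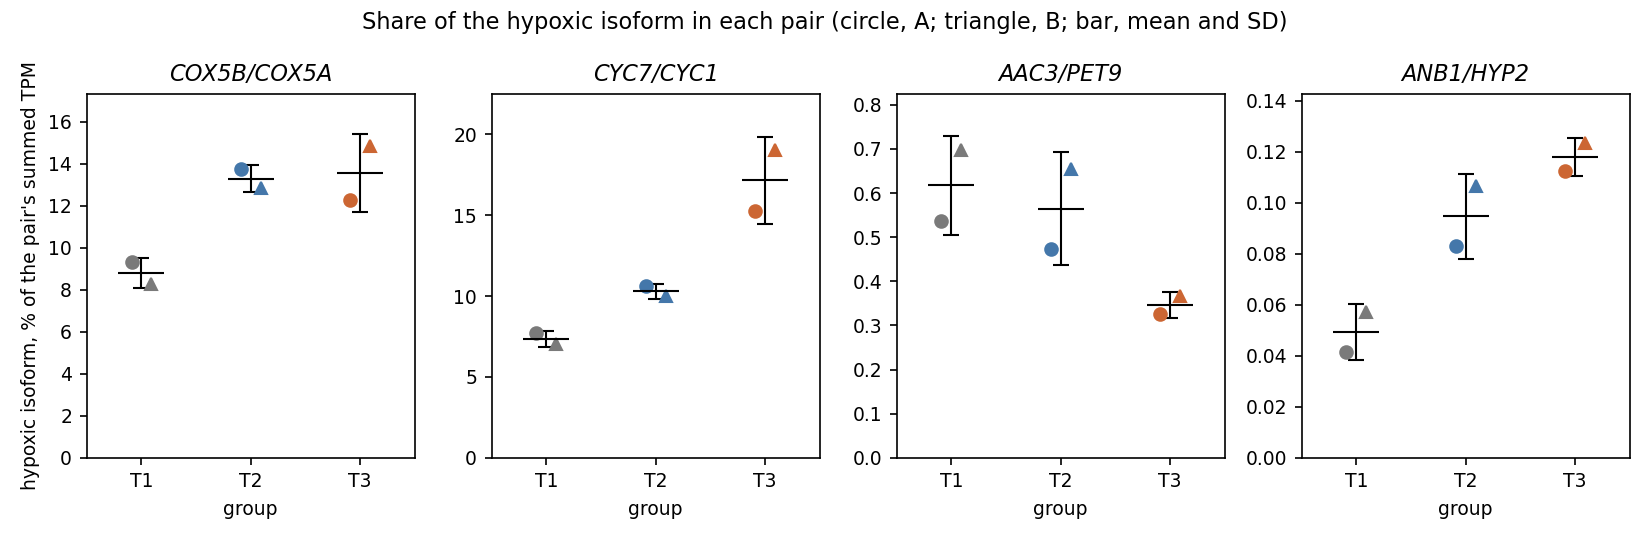
Share of the hypoxic isoform, as a percentage of the pair's summed TPM (vertical axes, each from 0), in the T1, T2 and T3 libraries; circles are replicate A, triangles replicate B, and bars the mean and SD of 2 libraries. The share of CYC7 lies at 15.3 to 19.1% in T3 and 7.02 to 7.69% in T1, and that of AAC3 is lowest in T3.

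Other genes of the oxygen and heme response were taken from lists chosen by gene name, and their counts stand beside 31.0% higher and 16.9% lower among all genes tested in T3 against T1. Of 14 regulators, 2 rose and 6 fell, with a median log2 change of -0.07. HAP4, the limiting subunit of the Hap2/3/4/5 activator, stood at 116.8 ± 9.55 TPM in T3 and 82.2 ± 15.7 TPM in T1 (SD, n = 2 each) and rose 1.43-fold (limma adjusted p = 0.00376). The other subunits are named after their values were seen. HAP2 and HAP3 fell, with log2 changes of -0.39 and -0.38 (limma adjusted p = 0.00855 and 0.00876), and HAP5 changed by -0.08 in log2 (limma adjusted p = 0.588). The HAP2 call was lost without T3 replicate B (limma adjusted p = 0.0731), where HAP5 changed by 0.06 in log2 (0.759). SUT1, a regulator of sterol uptake, rose 1.25-fold (limma adjusted p = 0.0456), a call lost without T1 replicate B (limma adjusted p = 0.44), T3 replicate A (0.084) or T3 replicate B (0.191), and with size factors (0.187), after quantile normalization (0.253), without the trend (0.0695), without a filter (0.0677) and with a replicate block (0.0568). UPC2, an activator of sterol and hypoxic genes, changed by -0.61 in log2 (limma adjusted p = 0.0042). TUP1 and CYC8, which encode the corepressor used by Rox1, had log2 changes of -0.47 and -0.42 (limma adjusted p = 0.00463 and 0.00887), and both calls were lost without T3 replicate B (limma adjusted p = 0.0631 and 0.105).

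MOT3, a repressor of hypoxic genes that acts beside Rox1, had a log2 change of -0.28 in T3 against T1 (limma adjusted p = 0.0264), lost without any 1 of the T1 or T3 libraries (limma adjusted p between 0.0559 and 0.132). HAP1, the heme-responsive activator gene, stood at 12.2 ± 0.55 TPM in T3 and 11.6 ± 0.989 TPM in T1 (SD, n = 2 each; limma adjusted p = 0.685), and the direction of this difference turned with size factors, after quantile normalization and without T1 replicate B.

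Of 20 other hypoxic genes, 19 were tested, and 8 rose and 1 fell, with a median log2 change of 0.17. PAU23, also called DAN2, a member of a family of very similar cell wall genes and so uncertain, rose 2.14-fold (limma adjusted p = 1.59e-05). FRD1, the soluble fumarate reductase gene, stood at 108.6 ± 3.51 TPM in T3 and 54.9 ± 10.98 TPM in T1 (SD, n = 2 each) and rose 1.98-fold (limma adjusted p = 2.57e-05). CYB5, the cytochrome b5 gene and the most abundant of the list, rose 1.31-fold (limma adjusted p = 0.00303), a call lost after quantile normalization (limma adjusted p = 0.105). OLE1, the gene of the oxygen-requiring fatty acid desaturase, was the 1 that fell. It stood at 225.5 ± 3.28 TPM in T3 and 352.3 ± 30.9 TPM in T1 (SD, n = 2 each), or -0.64 in log2 (limma adjusted p = 0.000131).

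Of the 7 other genes of heme synthesis, 2 rose and 3 fell, with a median log2 change of -0.07, beside the rise of HEM13. HEM14, the gene of the step after HEM13, rose 1.46-fold (limma adjusted p = 0.00174), and HEM4, the uroporphyrinogen III synthase gene, rose 1.33-fold (limma adjusted p = 0.00624). HEM12, the gene of the step before HEM13, changed by -0.68 in log2 (limma adjusted p = 0.000272), with 60.5 ± 7.57 TPM in T3 and 97.2 ± 0.12 TPM in T1 (SD, n = 2 each). HEM3, the porphobilinogen deaminase gene, changed by -0.44 in log2 (limma adjusted p = 0.00217).

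Of 6 other heme-activated aerobic genes, 4 rose and 1 fell, with a median log2 change of 0.78. SOD2, the mitochondrial superoxide dismutase gene, rose 2.45-fold (limma adjusted p = 1.2e-07), and CYB2, the lactate dehydrogenase gene, rose 2.13-fold (limma adjusted p = 2.44e-06). YHB1, which encodes flavohemoglobin, was the 1 that fell, by -0.85 in log2 (limma adjusted p = 5.37e-06).

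All 7 other nuclear subunits of cytochrome c oxidase rose in T3 against T1, with a median log2 change of 0.58 beside 0.94 for COX5B and 0.26 for COX5A. COX13 rose 2.06-fold (limma adjusted p = 1.57e-07) and COX12 1.62-fold (limma adjusted p = 3.26e-05). COX7, the most abundant, rose 1.33-fold (limma adjusted p = 0.00633), a call lost with size factors (limma adjusted p = 0.119). Of 3 genes of cytochrome maturation, CYT2, the heme lyase gene of cytochrome c1, rose 1.35-fold (limma adjusted p = 0.00152). CYC3, the heme lyase gene of cytochrome c, changed by 0.14 in log2 (limma adjusted p = 0.215), and by -0.05 after quantile normalization. CYC2 changed by -0.27 in log2 (limma adjusted p = 0.0467), lost with a replicate block (limma adjusted p = 0.0623) and without any 1 of the 6 libraries (limma adjusted p between 0.0502 and 0.245).

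Of 5 other carriers and porins of mitochondrial ATP exchange, 3 rose and 0 fell (0 falls at an unadjusted p under 0.05), with a median log2 change of 0.55. AAC1, the third ADP/ATP carrier gene, stood at 17.9 ± 0.575 TPM in T3 and 11.9 ± 0.693 TPM in T1 (SD, n = 2 each) and rose 1.46-fold (limma adjusted p = 0.00124), beside the fall of AAC3. PIC2, a mitochondrial copper and phosphate carrier gene, rose 1.89-fold (limma adjusted p = 6.46e-06), and POR1, the main porin gene of the outer membrane, rose 1.53-fold (limma adjusted p = 8.89e-05). LIA1, which encodes the second enzyme that makes hypusine, the modified residue of eIF5A, changed by -0.95 in log2 (limma adjusted p = 2.09e-06), with 88.0 ± 5.03 TPM in T3 and 170.6 ± 0.21 TPM in T1 (SD, n = 2 each). DYS1, the gene of the first enzyme, changed by -0.17 in log2 (limma adjusted p = 0.172), and it passed after quantile normalization (limma adjusted p = 0.00569) and with size factors (limma adjusted p = 0.0128).

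**Figure D5:**
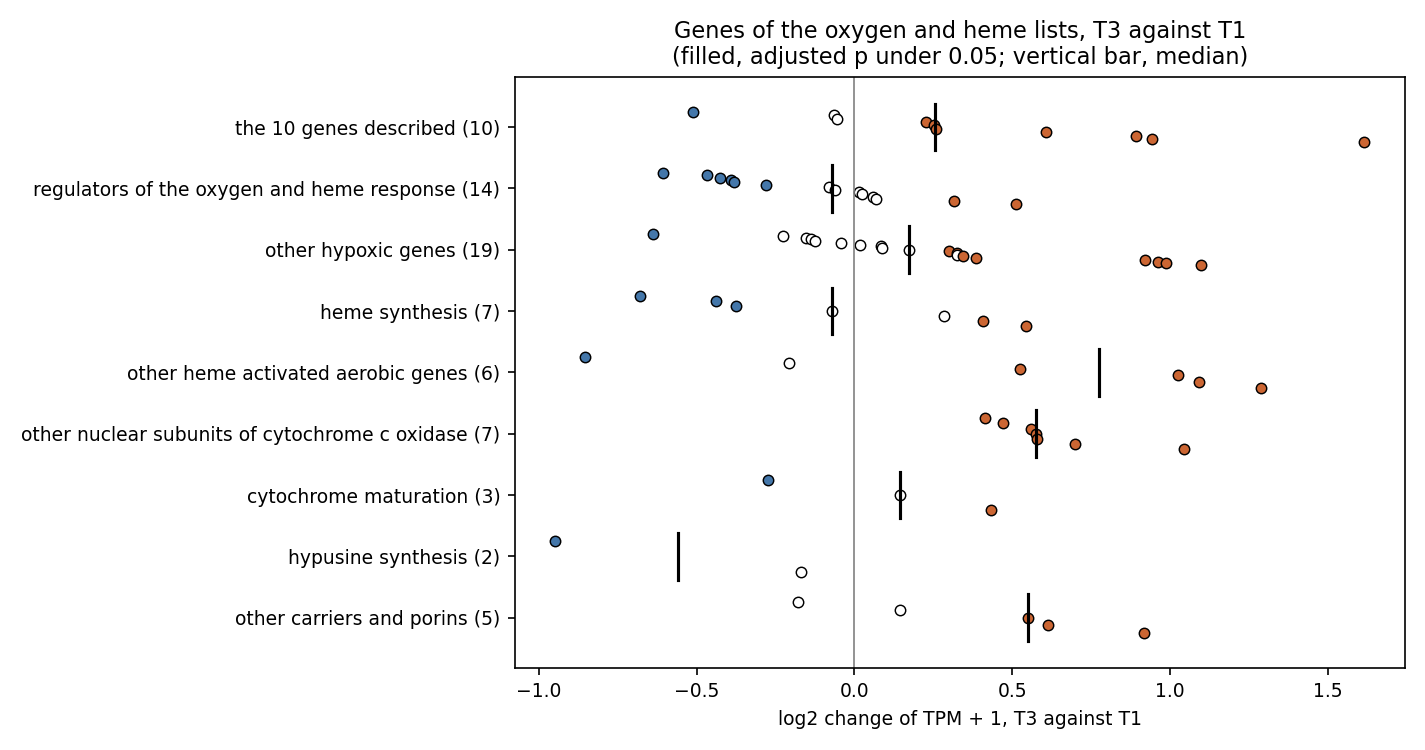
Log2 change of TPM + 1 in T3 against T1 (horizontal axis) for the 10 genes and the 8 lists of other oxygen and heme genes; each point is a gene, filled where the adjusted p was under 0.05, vertical bars are medians, and the number of genes tested stands in parentheses. All 7 other cytochrome c oxidase subunits lie to the right of 0, while the 7 other heme synthesis genes lie on both sides.

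Genes with the most similar course over the 6 libraries were taken among those with a mean of at least 10 TPM, by Pearson correlation of log2(TPM + 1). The values rest on 6 libraries of differing depth in 3 groups, and any gene that steps over the groups in the same way scores high, so they are a description. For CYC7 they were QCR7 and QCR8 (r = 0.9981 and 0.9975), which encode subunits of the cytochrome bc1 complex. For COX5B they were NSE1, a gene of the Smc5-Smc6 complex, and COQ9, a gene of ubiquinone synthesis (0.9988 and 0.9984). HEM13 was most like NPC2, a vacuolar sterol transport gene, and COQ6, another gene of ubiquinone synthesis (0.9987 and 0.9969). ANB1 was most like PRE4, a proteasome gene, and SUR1, a sphingolipid gene (0.9961 and 0.995). AAC3 was most like CIA1, a gene of cytosolic iron-sulfur assembly, and SMI1, a gene of cell wall synthesis control (0.9954 and 0.9926). COX5A was most like SEC7 and CLD1, CYC1 most like CBP6 and GAL3, and PET9 most like ACH1 and NTH2, with r between 0.9882 and 0.9975. The correlations were lower for HYP2 (CDC26 and RPL16B, r = 0.9721 and 0.9591) and ROX1 (ASF2 and PRM4, r = 0.9584 and 0.957).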

How the data were processed

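Poly(A) RNA was enriched with oligo(dT) and sequenced as paired reads of 150 bases, per the labels' protocols. STAR 2.5.2b, featureCounts and Subread 1.5.2 with build R64 are named in the submitters' processing notes; their settings, the use of strand and the treatment of reads matching several genes are not given in the sources used here. The deposited values are TPM, by the name the authors gave the table and by their sums. The 1 entry with no gene name was left out. Gene names, coordinates and exonic lengths came from the RefSeq copy of R64 (annotation R64-5-1), which matched 6081 of 6400 names, 35 by synonym. Fragments were recovered as TPM times exonic length, scaled per library; of protein-coding genes at or under 500 fragments, at least 99.84% came within 0.1 of whole numbers. No count model was used, since TPM are not counts.

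All 6 libraries entered 1 limma 3.58.1 fit (R 4.3.3) of group means on log2(TPM + 1) with an abundance trend, with 3 residual and 10.68 prior degrees of freedom. Genes averaging 1 TPM or more were tested, two-sided. The script was tested on simulated data. Python 3.11.15, pandas 2.3.3, NumPy 2.4.6, Biopython 1.88 and matplotlib 3.10.9 served tables, sequences and plots. The genes, lists, motifs and tests were chosen with earlier results of these data known. From each list the text names, by rule, the most abundant gene, the 2 largest rises and 2 largest falls among genes past the threshold in T3 against T1, and HAP1, HAP4, TUP1, CYC8, MOT3, AAC1 and OLE1; HAP2, HAP3 and HAP5 were added after their values were seen. The alternatives were other pseudocounts (0.1 and 5 TPM), filters (none, 10 TPM) and scalings, no trend, the compared groups alone, a replicate block, and leaving out each library.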

Additional observations from a re-analysis of the deposited data

How the results depend on the processing

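In T3 against T1, ANB1, COX5B, CYC7 and HEM13 passed, higher, in every alternative in which they were tested; ANB1 and AAC3 lie below the 10 TPM filter. Of the 10 genes, 7 were higher; 4 were after rescaling by the median of ratios, 4 without the abundance trend, and between 4 and 7 with 1 library left out. The count lower was 1, and 0 under the 10 TPM filter and with 1 library left out at the lowest, 1 at the highest. In T2 against T1, between 2 and 4 were higher with 1 library left out. In T3 against T2, 2 were higher after rescaling by the median of ratios, 2 after quantile normalization, 2 without the trend, and between 1 and 5 with 1 library left out. Counts over all genes with 1 library left out ran from 650 to 1097 in T2 against T1 and from 641 to 1687 in T3 against T2. For the difference between the steps, 65 genes passed in all, and 17 without a filter, 113 under the 10 TPM filter, 20 after rescaling, 10 after quantile normalization, 15 without the trend, 43 with the replicate block, and 18 to 254 with 1 library left out, with 0 of the 10 genes among them in any setting.

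Higher calls made up 64.7% of the calls in T3 against T1, 50.3% after rescaling and 45.2% after quantile normalization, which moved the median log2 change of all genes by -0.126. Higher calls in T2 against T1 made up 66.2%, and 51.9% after quantile normalization, and in T3 against T2 they made up 72.2%, with 53.6% after rescaling and 49.2% after quantile normalization.

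Deviations of same-lettered libraries from their group means correlated at 0.132, -0.058 and -0.15, so the letters were not taken as pairs. With the replicate block, 8 of the 10 genes still passed in T3 against T1, and HEM13 missed in T2 against T1 (limma adjusted p = 0.0619). Within blocks the exact test cannot go below 0.0556: the slopes of CYC7 to CYC1 (0.68), AAC3 to PET9 (-0.37) and ANB1 to HYP2 (0.48) had an exact permutation p = 0.0556. With 1 library left out the slopes ran from 0.26 to 0.46 for COX5B to COX5A, 0.58 to 0.74 for CYC7 to CYC1, -0.48 to -0.30 for AAC3 to PET9 and 0.38 to 0.53 for ANB1 to HYP2, and the exact test then has fewer assignments. Over the single genes of the 10, 526 of the results recomputed kept their direction and side of the threshold, 41 lost the threshold, 5 gained it and 10 changed sign. None of the changes of sign, these or the 5 among the other genes named, involved a value past the threshold on either side. After rescaling, the log2 change turned for HAP1 in T3 against T1 (-0.023) and CYC1 in T3 against T2 (-0.0018). After quantile normalization it turned for HAP1 (-0.086) and CYC3 (-0.054) in T3 against T1, and for CYC1 in the difference between the steps (0.084). With 1 library left out, values on both sides of 0 were found for ROX1 (-0.191 to 0.078), HAP1 (-0.013 to 0.147) and HAP5 (-0.219 to 0.060) in T3 against T1, AAC3 in T2 against T1 (-0.377 to 0.055), CYC1 in T3 against T2 (-0.012 to 0.162), and AAC3 (-0.622 to 0.242) and HEM13 (-0.259 to 0.215) in the difference between the steps. The causes were not tested.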
